A study of Mus musculus with 15 samples.

Results

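The genes described here encode the enzymes that write, copy and remove DNA methylation and the catalytic subunits of Polycomb repressive complex 2 (PRC2), namely Dnmt1, Dnmt3a, Dnmt3b, Tet1, Tet2, Tet3, Uhrf1, Ezh2 and Ezh1. They were taken as the 9 named genes, each read by every transcript cluster (the set of array probes that reports 1 transcript) annotated to that gene alone, which gave 12 of 24922 clusters and 9 of 19752 genes. Tet1 had 3 clusters, Tet3 had 2, and every other member had 1. Expression was measured on Affymetrix Mouse Gene 1.0 ST arrays in regulatory T cells (Treg, the CD4 T cells that express Foxp3 and restrain other lymphocytes) sorted from the spleens of 6-week-old male mice. Each array carried RNA of cells pooled from several mice.

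The 15 arrays came from 4 genotypes, and all of them, the controls included, carried Foxp3EGFPCre, which expresses Cre recombinase and green fluorescent protein in Foxp3-expressing cells. The N1c_RBPJdel group (3 arrays) also carried R26N1c/N1c, an allele that makes active intracellular Notch1 once Cre has acted, together with RBPJ∆/∆, the Cre-deleted form of the loxP-flanked gene of RBPJ, the DNA-binding partner of that Notch1 fragment. The N1c group (4 arrays) carried R26N1c/N1c without the deletion, the RBPJdel group (4 arrays) carried RBPJ∆/∆ without active Notch1, and the control group (4 arrays) carried Foxp3EGFPCre alone. The N1c_RBPJdel arrays came from a FACSAria sort and those of the other groups from a MoFlo sort, so in every comparison with N1c_RBPJdel the genotype and the sorter cannot be told apart.

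DNA methylation in mammals is placed on cytosines that precede guanine. Dnmt3a and Dnmt3b add it at new sites, and Dnmt1, guided by Uhrf1, which recognises the half-methylated DNA left by replication, copies it onto the new strand. Tet1, Tet2 and Tet3 oxidise methylcytosine and so begin its removal, a step needed in Treg to keep the Foxp3 locus demethylated and active. Ezh2 and Ezh1 are the alternative methyltransferases of PRC2, which marks silent genes on lysine of histone H3. Ezh2 is the form of dividing and activated cells, and Ezh1 that of resting cells.

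The labels were first set against the data. Rbpj had a mean intensity of 209 in N1c_RBPJdel, 521 in N1c, 267 in RBPJdel and 497 in control arrays, and it fell by 0.90 on the log2 scale in RBPJdel against control (adjusted p = 0.00213) and by 1.32 in N1c_RBPJdel against N1c. Hes1, a direct Notch target, rose by 3.25 in N1c against control. The 6 Treg markers summed to intensities of 20485 to 23618 in N1c_RBPJdel, 23604 to 25356 in N1c, 21034 to 27227 in RBPJdel and 22915 to 25679 in control arrays, and Foxp3 was not called in any comparison. Some markers of cells outside the sort gate were higher in the N1c_RBPJdel arrays. Of 5 measured B cell markers, 3 rose against N1c, 2 against RBPJdel and 2 against control. In each of these comparisons 1 of 6 neutrophil markers and 1 of 4 erythroid markers rose. Of all genes, 9.23% were called in either direction against N1c, 2.29% against RBPJdel and 8.9% against control. The summed intensity of the B cell markers was 577 to 889 in N1c_RBPJdel, 460 to 508 in N1c, 585 to 695 in RBPJdel and 503 to 577 in control arrays, and that of the erythroid markers was 399 to 1142 in N1c_RBPJdel, 278 to 354 in N1c, 284 to 325 in RBPJdel and 276 to 295 in control arrays. The sum of the neutrophil markers was 455 to 499 in N1c_RBPJdel, 329 to 432 in N1c, 357 to 414 in RBPJdel and 336 to 384 in control arrays, and that of 6 myeloid markers, of which 1 rose against N1c, was 315 to 446 in N1c_RBPJdel, 275 to 351 in N1c, 293 to 318 in RBPJdel and 276 to 338 in control arrays. Of 5 dendritic cell markers 1 rose against N1c, and no marker of CD8 T cells or NK cells was called in the comparisons with N1c_RBPJdel. The array table lists no marker at 0, since every probe returns some brightness. Their part in the results on N1c_RBPJdel below was not tested.

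Read by the brightest transcript cluster of each gene, none of the 9 enzymes passed the test in any of 7 comparisons. With every feature tested, the dimmer Tet3 cluster did pass in N1c_RBPJdel against control and against RBPJdel, as given below. The test was a linear model (limma) over all 15 arrays, with p-values adjusted by the Benjamini-Hochberg method over all 19752 genes and a threshold of 0.05. In N1c against control 0 of 9 members were called, beside 1.65% of all genes, and 1 member had an unadjusted p under 0.05, beside 8.21% of all genes. Same-numbered N1c and control arrays varied together, and this count leaves that pairing out. With array number as a block, Ezh2 was called in the fit of all groups and Tet3 in these groups alone, as given below. In RBPJdel against control 0 of 9 were called, beside 0.111%, and none had an unadjusted p under 0.05, beside 6.74%. In N1c against RBPJdel 0 of 9 were called, beside 2.5%, and none had an unadjusted p under 0.05, beside 11%.

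The comparisons with N1c_RBPJdel also called no member, but most members had lower means there. Against N1c, 0 of 9 were called, beside 9.23% of all genes, and 4 members had an unadjusted p under 0.05, beside 26.5%. Against RBPJdel 0 of 9 were called, beside 2.29%, with 5 members under the unadjusted threshold, beside 21.2%. Against control 0 of 9 were called, beside 8.9%, with 5 members under the unadjusted threshold, beside 26.4%. Means were lower in N1c_RBPJdel for 8 of 9 members against N1c, for 6 against RBPJdel and for 8 against control. The median log2 difference of the 9 members was -0.28, -0.30 and -0.25 in these 3 comparisons, beside medians of 0.02, -0.01 and 0.02 over all genes. These comparisons share the 3 N1c_RBPJdel arrays, so they are not separate evidence. The interaction, which asks whether active Notch1 acts differently with and without RBPJ, called 0 of 9 members, beside 0.84% of all genes, and 3 members had an unadjusted p under 0.05, beside 12.9%.

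**Figure D1:**
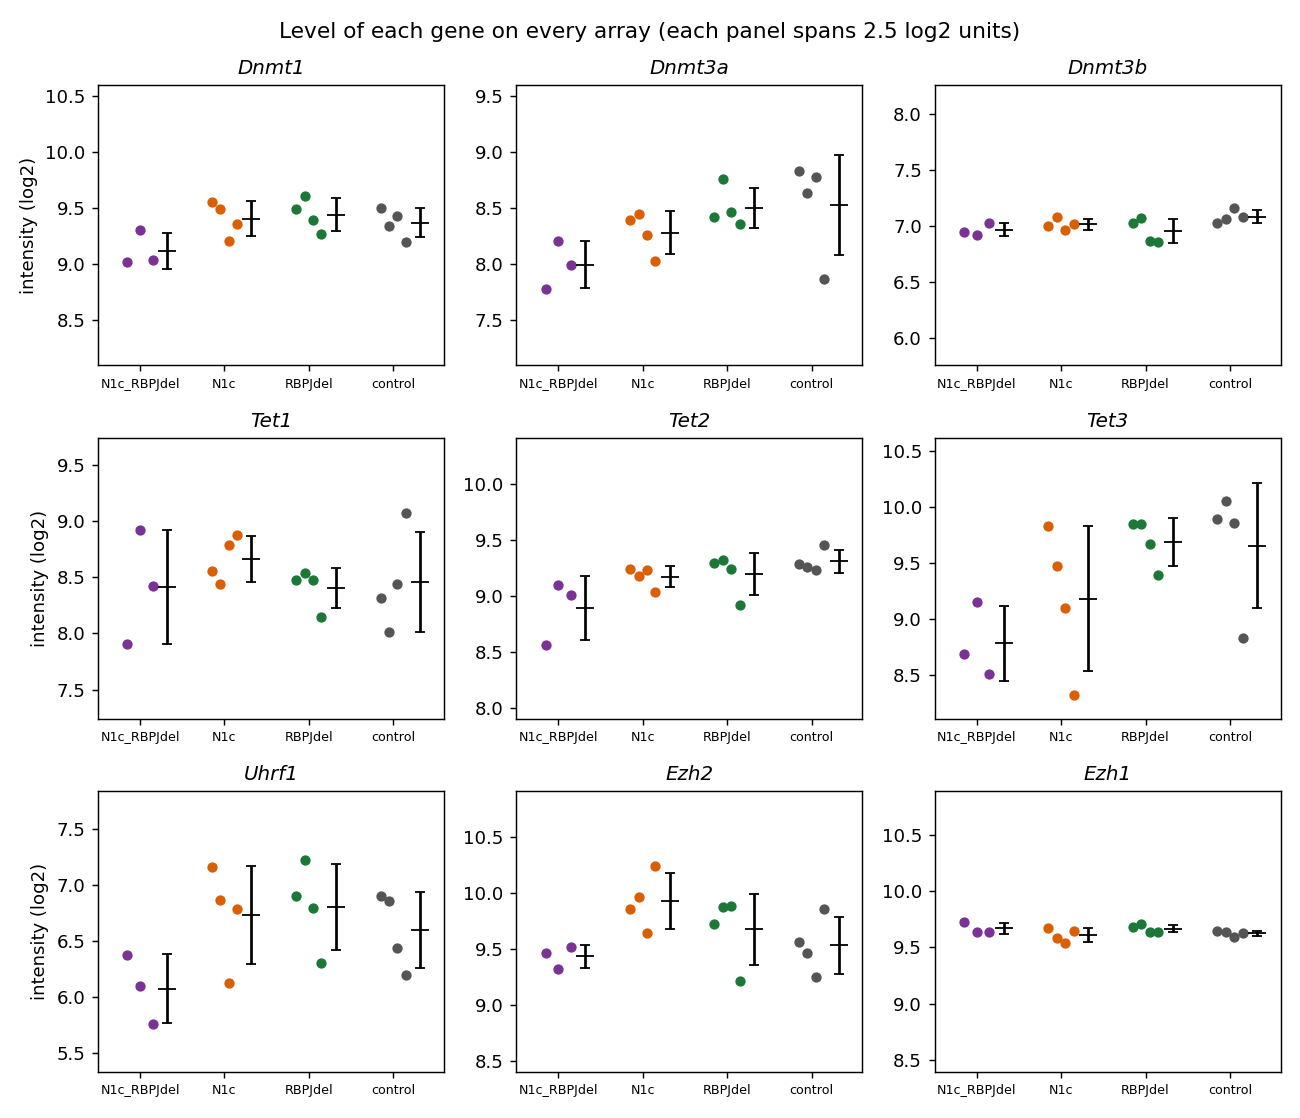
Intensity of each of the 9 enzymes (vertical axis, log2 scale) on every array, by genotype group. Points are arrays and the bar and whiskers are the group mean ± SD. Uhrf1, Dnmt3a and Tet3 have their lowest means in N1c_RBPJdel, Ezh2 has its highest mean in N1c, and Ezh1 is nearly level.

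The maintenance pair, Dnmt1 and Uhrf1, had their lowest means in N1c_RBPJdel, with arrays that overlapped those of every other group. Both genes have a promoter window that holds an E2F word, the short sequence bound by the E2F factors that switch on genes of DNA replication. Promoter sequence was taken from RefSeq (GRCm38.p6), where 14 windows of 300 bases, reaching 250 bases upstream and 50 downstream of a gene start, matched the 9 members. The words searched on both strands were TTTCCCGC, TTTCGCGC, TTTGCCGC and TTTGGCGC, none of which holds the RBPJ word TGGGAA, which was searched too. An E2F word occurs in 744 of 32851 promoter windows (2.26%) and in 3 of the 14 member windows, 1 each of Dnmt1, Uhrf1 and Ezh2. The RBPJ word occurs in 25.6% of all windows and in 4 of the 14 member windows, 1 each of Dnmt1, Dnmt3a, Tet1 and Tet3, a share near that of all windows. A word in a window is not shown to be a bound site. The 250 upstream bases of the Dnmt1 and Uhrf1 windows with an E2F word follow, 5′ to 3′ on the strand of the gene with the word in capitals. In Dnmt1 it lies on the opposite strand at position -219 from the gene start, and in Uhrf1 on the same strand at -185. The Dnmt1 window holds another E2F word, TTTGGCGC, on the same strand at position 33, downstream of the printed bases.

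Dnmt1, chr9:20952624-20952873, - strand: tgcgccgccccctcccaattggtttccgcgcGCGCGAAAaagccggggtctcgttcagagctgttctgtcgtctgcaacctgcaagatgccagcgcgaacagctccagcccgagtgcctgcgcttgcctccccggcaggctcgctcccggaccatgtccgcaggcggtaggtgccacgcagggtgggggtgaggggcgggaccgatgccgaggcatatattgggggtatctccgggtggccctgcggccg

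Uhrf1, chr17:56304063-56304312, + strand: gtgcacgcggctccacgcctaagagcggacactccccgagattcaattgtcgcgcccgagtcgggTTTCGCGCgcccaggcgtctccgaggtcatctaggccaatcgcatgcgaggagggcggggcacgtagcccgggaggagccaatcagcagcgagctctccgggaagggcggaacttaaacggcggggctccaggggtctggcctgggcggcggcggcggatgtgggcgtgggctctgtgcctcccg

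Dnmt1 (transcript cluster 10591369, chromosome 9), the enzyme that copies methylation, had intensities of 519.8, 633 and 525 on the N1c_RBPJdel arrays, 753, 721, 592 and 659 on the N1c arrays, 719, 783, 674 and 616 on the RBPJdel arrays, and 727, 649, 689 and 588 on the control arrays. Of the 3 N1c_RBPJdel arrays, 2 lay below every other array and the third lay among them. The log2 difference was -0.28 ± 0.12 (SE, n = 3 and 4) in N1c_RBPJdel against N1c (adjusted p = 0.133), -0.32 ± 0.12 against RBPJdel (adjusted p = 0.134) and -0.25 ± 0.12 against control (adjusted p = 0.188). In bulk RNA fewer dividing cells and less Dnmt1 RNA per cell cannot be told apart. The 3 groups sorted on the MoFlo lay close together, with 0.04 ± 0.11 in N1c against control and 0.07 ± 0.11 in RBPJdel against control. Without N1c_RBPJdel 2, the highest array of its group, the difference from RBPJdel was -0.41 and was called (adjusted p = 0.0474). The interaction was -0.36 ± 0.16 (adjusted p = 0.359).

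Uhrf1 (10446074, chromosome 17), which brings Dnmt1 to replicated DNA, had intensities of 82.7, 68.4 and 54.0 on the N1c_RBPJdel arrays, 143, 117, 69.8 and 110 on the N1c arrays, 119, 149, 111 and 78.9 on the RBPJdel arrays, and 119, 116, 86.8 and 73.3 on the control arrays. It lay below its own array's median intensity on 8 of 15 arrays, and whether it exceeded background there was not tested. Again 2 of the 3 N1c_RBPJdel arrays were below every other array. The log2 difference was -0.66 ± 0.24 in N1c_RBPJdel against N1c (95% interval -1.17 to -0.15, adjusted p = 0.0925), -0.73 ± 0.24 against RBPJdel (adjusted p = 0.103) and -0.52 ± 0.24 against control (adjusted p = 0.177). The order of the group means was N1c_RBPJdel, control, N1c and RBPJdel from low to high, and no pair of groups passed the test. Without N1c 4, the lowest N1c array, the difference from N1c was -0.86 and was called (adjusted p = 0.0294). The interaction was -0.87 ± 0.33 (adjusted p = 0.265). With array number as a block in the fit of all groups it was called (adjusted p = 0.0256). That block also pairs groups whose same-numbered arrays did not vary together.

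**Figure D2:**
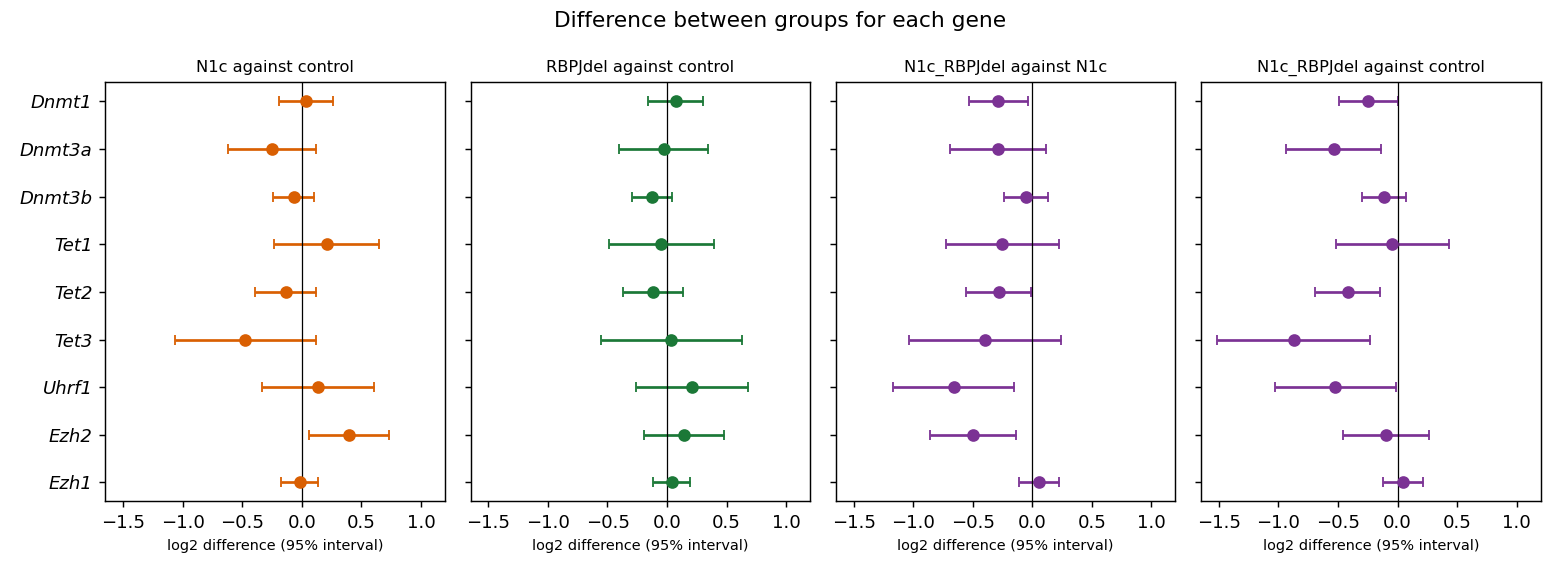
Log2 difference of each enzyme with its 95% interval from the limma fit, in 4 comparisons. Each gene is read by its brightest transcript cluster, and none passed the adjusted threshold. In the N1c_RBPJdel panels the intervals of Dnmt1, Uhrf1 and Tet2 lie below 0, those of Dnmt3a and Tet3 do so against control, and that of Ezh2 does so against N1c and lies above 0 in N1c against control.

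The de novo enzymes behaved unlike each other. Dnmt3a (10394209, chromosome 12) had intensities of 219.95, 294 and 255 on the N1c_RBPJdel arrays, 336, 349, 306 and 260.1 on the N1c arrays, 342, 433, 352 and 328 on the RBPJdel arrays, and 456, 398, 437 and 234 on the control arrays. The N1c_RBPJdel arrays did not overlap those of RBPJdel, overlapped those of N1c only through array N1c 5, and overlapped those of control only through array control 5. The log2 difference in N1c_RBPJdel was -0.51 ± 0.19 against RBPJdel (adjusted p = 0.140), -0.54 ± 0.19 against control (adjusted p = 0.0836) and -0.29 ± 0.19 against N1c (adjusted p = 0.357). Array control 5 bore on both tests. Without it Dnmt3a fell by 0.76 in N1c_RBPJdel against control (adjusted p = 0.00647), while its difference from RBPJdel, which does not involve that array, stayed at -0.51 and was called with the smaller shared spread (adjusted p = 0.0461). Dnmt3b (10477325, chromosome 2) lay between 116 and 143 on all 15 arrays. Its group means were 125 in N1c_RBPJdel, 129 in N1c, 124 in RBPJdel and 136 in control arrays, and its differences in the 7 comparisons ran from -0.13 to 0.08.

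Among the methylcytosine oxidases, Tet3 and Tet2 had their lowest means in N1c_RBPJdel and Tet1 showed no order by group. The Tet3 promoter window (RefSeq, GRCm38.p6) is shown because Tet3 is the member with a called transcript cluster and its window holds the RBPJ word, in capitals at position -121. It was thus picked after the result was seen, and 25.6% of all windows hold that word. In RBPJdel against control Tet3 differed by 0.03 ± 0.28 on the brighter of its 2 clusters and by -0.14 ± 0.19 on the dimmer, neither of them called.

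Tet3, chr6:83441679-83441928, - strand: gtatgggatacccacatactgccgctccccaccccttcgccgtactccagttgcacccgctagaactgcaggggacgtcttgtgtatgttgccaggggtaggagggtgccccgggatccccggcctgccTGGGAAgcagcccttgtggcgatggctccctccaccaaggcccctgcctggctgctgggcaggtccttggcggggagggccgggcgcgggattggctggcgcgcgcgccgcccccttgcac

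Tet3 (10545682, chromosome 6, the brighter of its 2 transcript clusters) had intensities of 413, 567 and 363 on the N1c_RBPJdel arrays, 910.1, 709.6, 547 and 320.2 on the N1c arrays, 919, 922, 814 and 672 on the RBPJdel arrays, and 947, 1059, 924 and 454 on the control arrays. Arrays N1c 5 and control 5 were the lowest of their groups, and no RBPJdel array overlapped N1c_RBPJdel. The log2 difference in N1c_RBPJdel was -0.91 ± 0.30 against RBPJdel (95% interval -1.55 to -0.27, adjusted p = 0.106), -0.87 ± 0.30 against control (adjusted p = 0.0790) and -0.40 ± 0.30 against N1c (adjusted p = 0.433). Without control 5 it fell by 1.15 against control (adjusted p = 0.0162), and it was also called there without N1c 5 (-0.87, adjusted p = 0.0370) or without N1c_RBPJdel 2 (-1.06, adjusted p = 0.0479). With the mean of both clusters in place of the brighter one it fell by 0.97 (adjusted p = 0.0218).

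The dimmer Tet3 cluster (10545692) was the only one of the 12 clusters that passed the test, and it was singled out after its values were seen. Its intensities were 278, 523 and 368 on the N1c_RBPJdel arrays, 715, 669, 507 and 422 on the N1c arrays, 764, 769.7, 669 and 669 on the RBPJdel arrays, and 812, 896, 863 and 624 on the control arrays. The deposited value was the same, 669.4344, on N1c 2, RBPJdel 3 and RBPJdel 4. It is also the median of this cluster over all arrays, so the spread of the RBPJdel arrays rests in part on a repeated value. All 3 N1c_RBPJdel arrays lay below every RBPJdel and control array, and they overlapped the N1c arrays through N1c_RBPJdel 2. With every feature of the table tested, it fell by 1.07 ± 0.21 on the log2 scale in N1c_RBPJdel against control (adjusted p = 0.00882, where 8.56% of 24922 features were called) and by 0.93 ± 0.21 against RBPJdel (adjusted p = 0.0341, where 2.04% were called). Against N1c the difference was -0.59 ± 0.21 (adjusted p = 0.0843, where 8.91% were called). On N1c_RBPJdel 2 taken alone for its group, the difference was smaller, at -0.60 from control (adjusted p = 0.223) and -0.45 from RBPJdel (adjusted p = 0.413). This choice was made after the data were seen, and a single array has no spread of its own, so it is assumed to vary like the other groups and the missing calls say little. The call against RBPJdel was also lost when any one of 6 single arrays was left out (N1c_RBPJdel 1 or 3, RBPJdel 1, 2 or 3, or control 2). Array N1c_RBPJdel 2 had an intensity of 400 for the erythroid marker Car1, against 852 and 137 on the other N1c_RBPJdel arrays and 49.9 to 75.3 on the other 12. On that array the sums of the B cell markers (889) and neutrophil markers (499) were the highest of its group. The sum of its myeloid markers (315) was the lowest. Whether any of these bears on Tet3 was not tested.

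**Figure D3:**
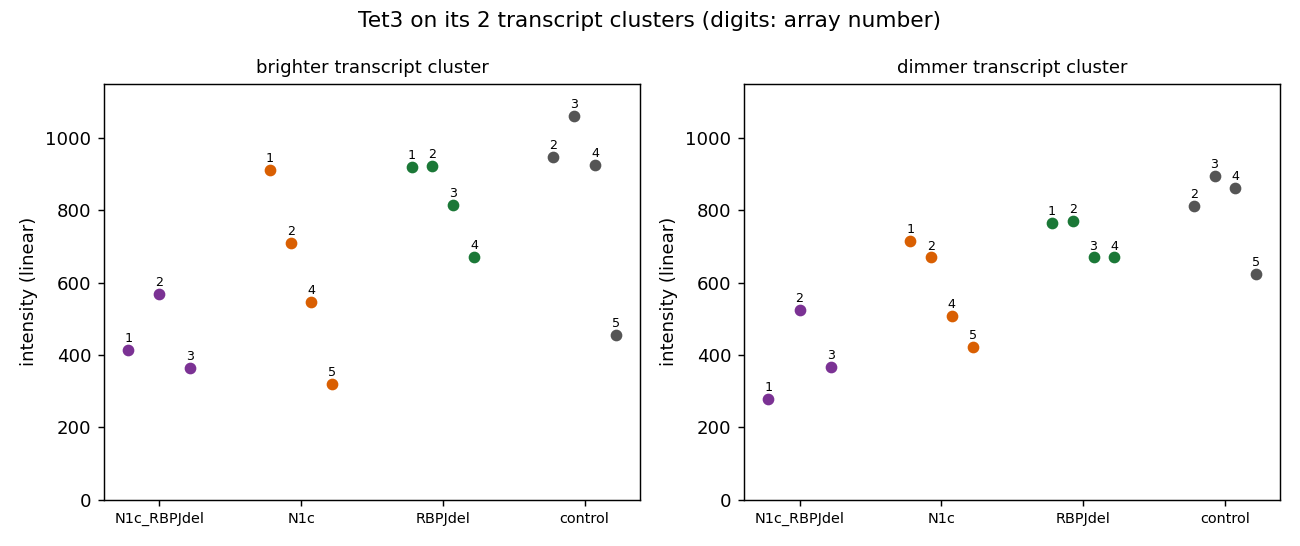
Intensity of the brighter and the dimmer Tet3 transcript cluster (vertical axis, linear scale) by genotype group, with each point marked by its array number. In both panels N1c 5 and control 5 are the lowest arrays of their groups, and the N1c_RBPJdel arrays lie below all RBPJdel arrays.

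Tet2 (10502284, chromosome 3) had intensities of 379, 549.5 and 514 on the N1c_RBPJdel arrays, 606, 581, 601 and 525 on the N1c arrays, 628, 639, 607 and 484 on the RBPJdel arrays, and 625, 614, 601 and 703 on the control arrays. The N1c_RBPJdel and control arrays did not overlap. Tet2 had the smallest adjusted p of all members there, just outside the threshold, with a log2 difference of -0.42 ± 0.13 (95% interval -0.69 to -0.15, adjusted p = 0.052). It was called without N1c 5 (adjusted p = 0.0480), without RBPJdel 4 (adjusted p = 0.0392) or without N1c_RBPJdel 2 (-0.52, adjusted p = 0.0204). The difference was -0.28 ± 0.13 against N1c (adjusted p = 0.174) and -0.30 ± 0.13 against RBPJdel (adjusted p = 0.188). Tet1 (10369702, chromosome 10, the brightest of 3 clusters) ranged from 239.6 to 484 in N1c_RBPJdel, 347 to 471 in N1c, 283 to 371 in RBPJdel and 258 to 538 in control arrays. Its spread within groups covered all its differences, which ran from -0.25 to 0.26, and neither of its other clusters was called in any comparison.

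The members whose N1c_RBPJdel arrays did not overlap another group's were 1 of 9 against N1c (Ezh2), beside 16.4% of all genes, 2 against RBPJdel (Dnmt3a and Tet3), beside 15.8%, and 1 against control (Tet2), beside 18.7%. In N1c against control, RBPJdel against control and N1c against RBPJdel no member separated the groups, beside 5.73%, 5.89% and 8.22% of all genes.

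Of the PRC2 enzymes, Ezh2 was the only member that was higher in N1c at an unadjusted p under 0.05. Ezh2 (10544501, chromosome 6) had intensities of 704, 639 and 733 on the N1c_RBPJdel arrays, 928, 999 and 801 on 3 N1c arrays and 1209 on N1c 5, 842, 938, 945 and 594 on the RBPJdel arrays, and 754, 705, 608 and 927 on the control arrays. In N1c against control the log2 difference was 0.40 ± 0.16 (n = 4 each, 95% interval 0.06 to 0.73, adjusted p = 0.409), and 1 control array reached into the N1c range. Same-numbered N1c and control arrays varied together, and with that number as a block in the fit of all groups Ezh2 rose by 0.42 (adjusted p = 0.0382). A blocked fit of these groups alone gave 0.40 for Ezh2 (adjusted p = 0.0764) and called Tet3 instead, at -0.56 (adjusted p = 0.0299), against -0.47 ± 0.28 (adjusted p = 0.812) without a block. In N1c_RBPJdel against N1c the difference of Ezh2 was -0.50 ± 0.17 (n = 3 and 4, 95% interval -0.86 to -0.13, adjusted p = 0.0771), and all N1c arrays were higher. Without RBPJdel 4, which leaves this difference as it is and lowers the shared spread, it was called (adjusted p = 0.0414). Against control N1c_RBPJdel differed by -0.10 ± 0.17 (adjusted p = 0.746), and the interaction was -0.64 ± 0.23 (adjusted p = 0.246). With array number as a block in the fit of all groups the interaction was called (adjusted p = 0.0115), with the limit given for Uhrf1.

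Ezh1 (10391378, chromosome 11), the enzyme of resting cells, was the member that varied least, with values between 746 and 849 and an SD over all 15 arrays of 0.0467 on the log2 scale. Its group means differed by no more than 0.06 in any comparison. On 5 of the 15 arrays the deposited value was the same, 798.0942, which is also its median over all arrays. Such repeated values are common in the table, since 35.9% of the 24922 features have a value shared by at least 2 arrays and 2.57% have one shared by 5 or more. The origin of the repeats is not given. The SD of Ezh1 rests in part on such repeats. Tet2 likewise had the same value, 600.8773, on N1c 4 and control 4, which is its median over all arrays.

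Of 9 other PRC2 subunits and accessory factors, none was called in any comparison. In N1c_RBPJdel against control 8 of 9 had lower means, with a median of -0.18, beside 0.02 over all genes. The list's largest differences in 3 of the comparisons were -0.21 ± 0.18 for Phf1 in N1c against control, -0.26 ± 0.12 for Mtf2 in RBPJdel against control, and -0.44 ± 0.17 for Phf19 in N1c_RBPJdel against N1c (adjusted p = 0.105). Phf19 differed by -0.51 ± 0.17 in N1c_RBPJdel against RBPJdel (adjusted p = 0.0983), by -0.45 ± 0.17 in N1c_RBPJdel against control (adjusted p = 0.0960) and by -0.50 ± 0.23 in the interaction (adjusted p = 0.366). Phf1, Mtf2 and Phf19 are among the accessory factors that bring PRC2 to chromatin.

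Of 19 measured parts of PRC1, the complex that binds the PRC2 mark, 1 rose in N1c_RBPJdel against N1c, where 9.23% of all genes were called, and 1 fell in N1c_RBPJdel against control, where 8.9% were. Cbx7, a chromodomain reader of the mark, had intensities of 1282, 1719 and 1157 on the N1c_RBPJdel arrays and 551, 394, 813 and 435 on the N1c arrays. It rose by 1.38 ± 0.30 (adjusted p = 0.00942), where the groups did not overlap. In N1c against control the difference was -1.05 ± 0.28 (adjusted p = 0.0787), with 963 to 1320.3 on the control arrays. Pcgf5, a subunit of a variant PRC1, fell by 0.58 ± 0.14 in N1c_RBPJdel against control (adjusted p = 0.0216). The median over the 19 genes was -0.02 in N1c_RBPJdel against N1c and -0.01 in N1c_RBPJdel against control, beside 0.02 and 0.02 over all genes.

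A list of 7 genes described as opposing Polycomb silencing, not all of them enzymes, held Kdm6a, Kdm6b, Bap1, Asxl1, Asxl2, Kmt2a and Kmt2d. All 7 had lower means in N1c_RBPJdel than in N1c and in control. The medians were -0.30 and -0.32, beside 0.02 and 0.02 over all genes. Against N1c 1 of the 7 was called, beside 9.23% of all genes, against control 2, beside 8.9%, and against RBPJdel 1, beside 2.29%. In N1c_RBPJdel against N1c, Kdm6b, a demethylase of the PRC2 mark, fell by 0.69 ± 0.17 (adjusted p = 0.0167). Kmt2a and Kmt2d, which place the opposing mark on lysine 4, fell by 0.79 ± 0.14 (adjusted p = 0.00448) and 0.84 ± 0.22 (adjusted p = 0.0249) in N1c_RBPJdel against control. Kmt2a also fell by 0.70 ± 0.14 in N1c_RBPJdel against RBPJdel (adjusted p = 0.0206). Kdm6a, the X-linked relative of Kdm6b, differed by -0.27 ± 0.10 in RBPJdel against control (adjusted p = 0.582).

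Of 27 measured partners in DNA methylation and its removal, 1 rose and 3 fell in N1c_RBPJdel against N1c, where 9.23% of all genes were called, 2 fell in N1c_RBPJdel against control, where 8.9% were, and 1 rose in N1c against RBPJdel, where 2.5% were. Usp7, a deubiquitinase that stabilises Dnmt1 and Uhrf1, fell by 0.49 ± 0.12 against N1c (adjusted p = 0.0188) and by 0.54 ± 0.12 against control (adjusted p = 0.0137). Its intensities were 931, 1148 and 1224 on the N1c_RBPJdel arrays, 1657, 1806, 1276 and 1444 on the N1c arrays and 1499 to 1644 on the control arrays, with no overlap. Pcna, the sliding clamp to which Dnmt1 binds at replication forks, fell by 0.41 ± 0.10 against N1c (adjusted p = 0.0142). Idh1, which makes the substrate that Tet enzymes use, fell by 0.78 ± 0.15 in N1c_RBPJdel against control (adjusted p = 0.00812). Cxxc5, a CpG-binding protein related to the DNA-binding part of Tet enzymes, fell by 0.44 ± 0.10 in N1c_RBPJdel against N1c (adjusted p = 0.0125) and rose by 0.37 ± 0.09 in N1c against RBPJdel (adjusted p = 0.0465). Cxxc4, its relative, rose by 0.42 ± 0.11 in N1c_RBPJdel against N1c (adjusted p = 0.0208). Gadd45b, a stress-induced gene linked to demethylation, had the largest differences of this list in 3 comparisons without being called, with 0.49 ± 0.37 in N1c against control, -0.33 ± 0.37 in RBPJdel against control and -0.66 ± 0.40 in N1c_RBPJdel against N1c.

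**Figure D4:**
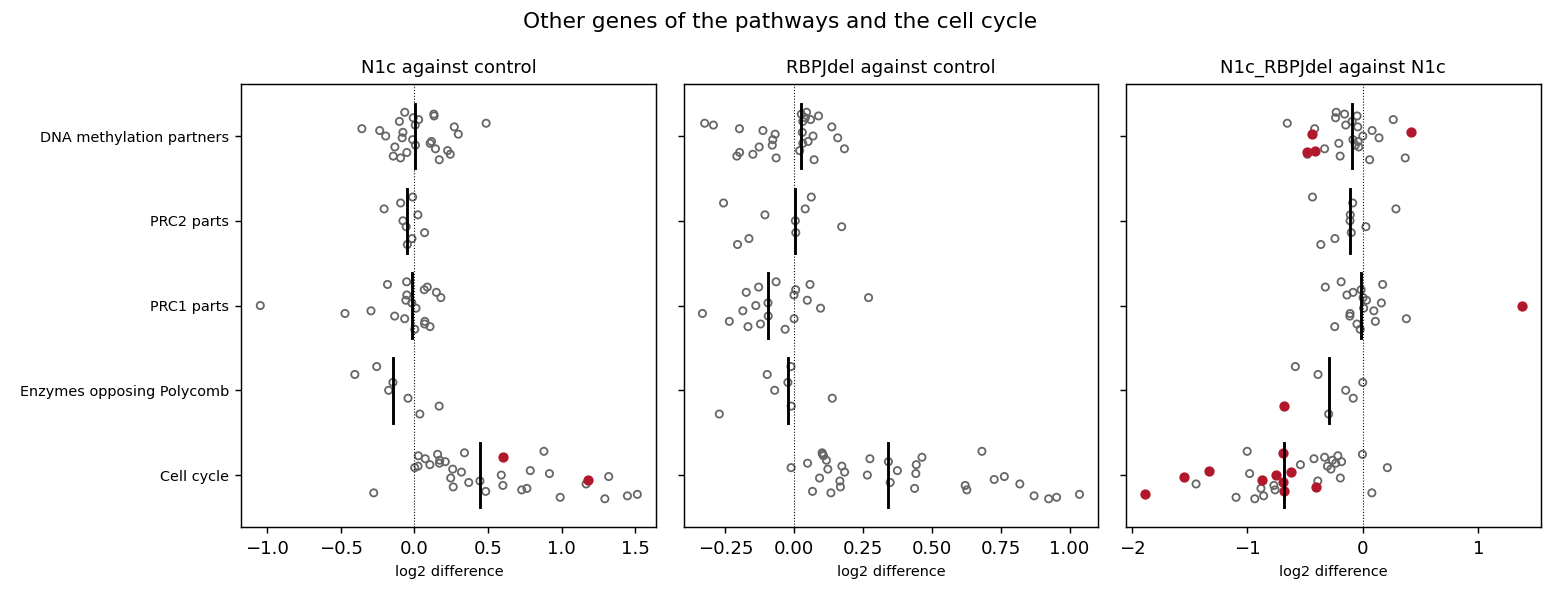
Log2 difference of every measured gene of 5 lists in 3 comparisons, with called genes as filled red points, other genes as open points and a bar at the list's median. The median of the cell cycle list lies above 0 in N1c against control and in RBPJdel against control and below 0 in N1c_RBPJdel against N1c, and the PRC2 list holds no called gene.

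Since Dnmt1, Uhrf1 and Ezh2 are genes of dividing cells, 33 measured cell cycle genes were set beside them. In N1c against control 2 of 33 rose, beside 0.937% of all genes, none fell, and the median was 0.45, beside -0.01 over all genes. In N1c_RBPJdel against N1c 10 fell, beside 4.65% of all genes, and none rose, with a median of -0.68, beside 0.02. The list also had a median of 0.34 in RBPJdel against control, with 32 of 33 genes higher, and of -0.45 in N1c_RBPJdel against RBPJdel, with 31 of 33 lower, in both without a call. In N1c_RBPJdel against control the median was -0.12. The interaction called 2 of 33, both lower, beside 0.84% of all genes called in either direction, and the other comparisons called none. Rrm2, the ribonucleotide reductase subunit made in S phase, had intensities of 115, 117 and 119 on the N1c_RBPJdel arrays and 413, 361, 184 and 277 on the N1c arrays, and fell by 1.34 ± 0.28 (adjusted p = 0.00803). The replication regulator E2f1 fell by 0.69 ± 0.16 (adjusted p = 0.0132) and the cyclin Ccna2 fell by 1.89 ± 0.52 (adjusted p = 0.0316). Ccne2, the cyclin of entry into S phase, fell by 0.68, the mitotic kinase Aurka fell by 0.40 and the spindle motor Kif11 fell by 1.55. Ube2c, a ubiquitin carrier of mitotic exit, rose by 1.18 ± 0.24 in N1c against control (adjusted p = 0.0127).

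Across the 15 arrays Uhrf1, Dnmt1 and Ezh2 correlated with the cell cycle genes. The mean log2 level of the 33 genes ran from 7.02 to 7.25 in N1c_RBPJdel, 7.38 to 8.08 in N1c, 7.10 to 7.91 in RBPJdel and 6.94 to 7.54 in control arrays. Uhrf1 correlated with it at r = 0.848 (permutation p = 0.00017, adjusted over 9 relations p = 0.00153) and rho = 0.779 (permutation p = 0.00092, adjusted p = 0.00828). Without control 5 and control 4, the arrays farthest from the median, r was 0.885, over the 12 arrays sorted on the MoFlo it was 0.844, and after removal of the group means it was 0.914. Dnmt1 gave r = 0.733 (permutation p = 0.00197, adjusted p = 0.00886) and rho = 0.736 (permutation p = 0.00232, adjusted p = 0.0104), with 0.853, 0.690 and 0.736 under the same 3 restrictions. Ezh2 gave r = 0.687 (permutation p = 0.00518, adjusted p = 0.0155) and rho = 0.711 (permutation p = 0.00386, adjusted p = 0.0116), with 0.811, 0.651 and 0.465. None of the other 6 members passed the adjustment (lowest adjusted p = 0.316). After removal of the group means, however, Ezh1 (0.570), Tet3 (0.552) and Dnmt3a (0.479) gave values above that of Ezh2, so within groups Ezh2 did not stand apart from them. Arrays share their normalization, and the cell cycle genes and the members were read from the same RNA. The permutations exchanged all 15 arrays freely, so their p-values do not allow for genotype or for same-numbered arrays that vary together.

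**Figure D5:**
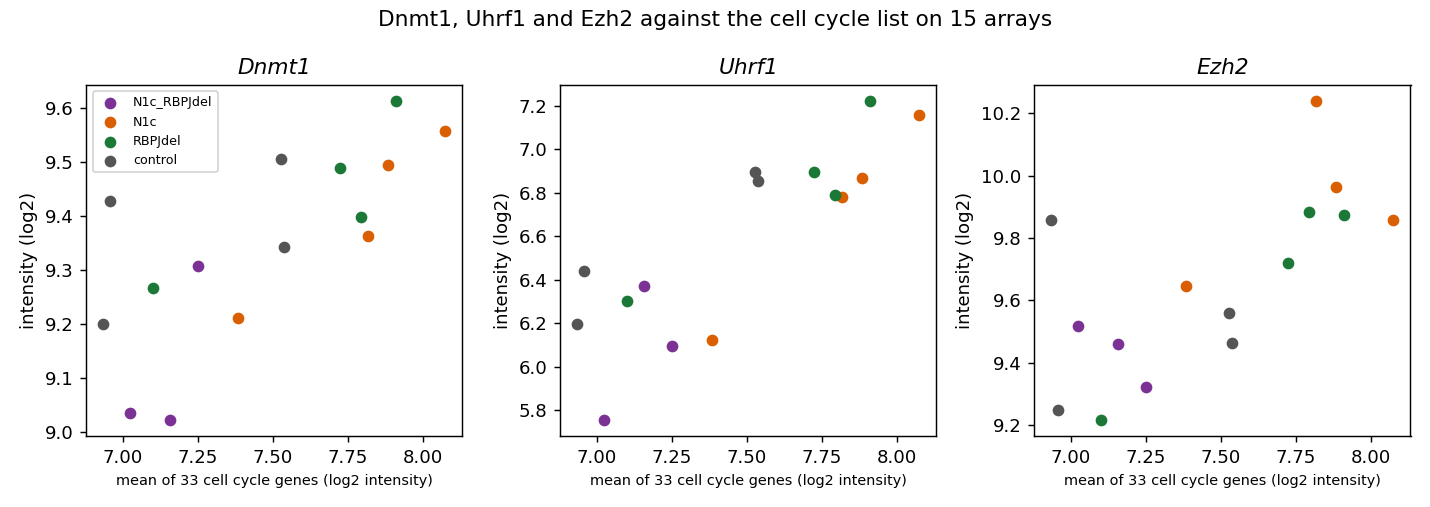
Log2 level of Dnmt1, Uhrf1 and Ezh2 (vertical axes) against the mean log2 level of 33 cell cycle genes (horizontal axes) on the 15 arrays, coloured by genotype group. Uhrf1 follows the cell cycle mean most closely, with r = 0.848.

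Among the 36 pairs of members the correlations of Dnmt3a with Tet3, Dnmt1 with Uhrf1 and Dnmt1 with Dnmt3a were the highest. Dnmt3a and Tet3 varied together with r = 0.886 and rho = 0.914 over the 15 arrays (permutation p of r = 2.0e-05, adjusted over 36 pairs p = 0.00072). The value was 0.910 without the 2 farthest arrays, 0.851 over the MoFlo arrays and 0.811 after removal of the group means. Dnmt1 and Uhrf1 gave r = 0.855 and rho = 0.879 (adjusted permutation p = 0.00126), with 0.839, 0.904 and 0.748 under the same restrictions. Dnmt1 and Dnmt3a gave r = 0.779 and rho = 0.779 (adjusted permutation p = 0.00816), with 0.672, 0.635 and 0.736.

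The genes whose levels over the 15 arrays were most like each member were named from 9485 brighter genes by Pearson's r, as a description and with no test. They were Ncapd2 (0.939) and Zc3h4 (0.933) for Dnmt1, and Pole (0.902), the catalytic subunit of a replicative DNA polymerase, and Stmn1 (0.891) for Uhrf1. For Dnmt3a they were Tln1 (0.950) and Fam53b (0.946), and for Tet3 Dgcr2 (0.968) and Lztr1 (0.964). For Tet2 they were Ikzf3 (0.895), an Ikaros family factor of lymphocytes, and Oma1 (0.889), and for Tet1 Clasrp (0.898) and Tlcd1 (0.889). For Ezh2 they were Lin7c (0.879) and Dst (0.863). The likeness was weaker for the members that vary least, with Safb2 (0.765) and Brf1 (0.764) for Dnmt3b, and Tafa3 (0.826) and Bpifb2 (0.796) for Ezh1.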

How the data were processed

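The authors deposited array intensities for each transcript cluster. The submitters' processing notes name Affymetrix Power Tools and RMA, without versions. The values are on a linear scale (5.61 to 18029.7, array medians 107.1 to 117.2) and were converted to log2. Of 24922 features, 21425 naming 1 gene were used, and the brightest was kept for 921 genes with several, which left 19752 genes with no filter on dim genes. Levels of different probes were not compared.

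Groups were taken from the sample titles. The model (limma 3.58.1, R 4.3.3) held 1 mean per genotype over the 15 arrays (11 residual and 6.15 prior degrees of freedom), with two-sided p-values adjusted over all genes. Since each array pools mice, these p-values reflect spread between pools. The script was tested on simulated data. Correlations used 100000 permutations of all 15 arrays, without regard to genotype or array number. The number of arrays limits the precision, and correlations between arrays were 0.957 to 0.996.

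The members and gene lists were chosen with earlier results of these data known. All members were named, and from each list up to 6 called genes by smallest adjusted p and those with the largest difference in the N1c, RBPJdel and N1c_RBPJdel against N1c comparisons. Other genes are checks of the labels and markers. Of the features naming 1 gene, 21347 matched the reference table (GRCm38.p6). Whether array numbers pair the groups was checked by correlating residuals. For N1c and control r was 0.417, 0.341 and 0.497, above 0.1 for each pair, so these groups met the rule for pairing and no others did. The arrays numbered 4 also gave 0.457 in N1c and RBPJdel and 0.417 in RBPJdel and control, but other numbers of these groups fell below 0.1. The reported values are without a block. Blocked values stand beside them in N1c against control and in the interaction, where they change a call. In the comparisons with N1c_RBPJdel only the number of members called with the block is given. Alternatives were quantile normalization, median centring, brighter genes only, the mean of a gene's clusters, every feature tested, only the groups compared, array weights, a trended and robust variance, a replicate block, and leaving out each array. Leaving out N1c 5 and control 5 together, and keeping N1c_RBPJdel 2 alone, were chosen after seeing the data.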

Additional observations from a re-analysis of the deposited data

Results flagged for a closer look

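Each member was examined in the 3 groups of 4 arrays, 27 groups in all, for an array far from the others, and 2 were found where chance flags about 1 group in 20. Tet3 (brighter cluster) had an intensity of 454 on control 5, while the other control arrays had 924 to 1059. Tet1 had 283 on RBPJdel 4, while the other RBPJdel arrays had 356 to 371.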

How the results depend on the processing

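No member was called in RBPJdel against control or in N1c against RBPJdel under any alternative run, and no called value reversed. Over all alternatives 48 of 1676 member values passed the threshold, and 77 uncalled values near 0 turned sign. The number of members called, 0 in each comparison as reported, became 1 in N1c against control with the replicate block (Ezh2) and 1 with that block in the groups compared alone (Tet3). In N1c_RBPJdel against N1c it was 5 with the block, 1 with median centring (Ezh2), 1 without N1c 5 and control 5 (Tet3), and 0 to 1 with single arrays left out. Against RBPJdel it was 4 with the block, 3 with the block in the groups alone, 1 with only the groups compared (Tet3, adjusted p = 0.0466), 2 without N1c 5 and control 5 (Dnmt3a and Tet3), and 0 to 1 with single arrays left out. Against control it was 5 with the block, 3 with the block in the groups alone, 3 with array weights (Dnmt3a, Tet2 and Tet3), 1 with median centring (Tet2, adjusted p = 0.0359), 1 among brighter genes (Tet2, adjusted p = 0.0414), 1 with the mean of clusters (Tet3), 2 without N1c 5 and control 5 (Dnmt3a and Tet3), and 0 to 2 with single arrays left out. The arrays whose loss gave a call were N1c 4 and RBPJdel 4 against N1c, N1c_RBPJdel 2 and control 5 against RBPJdel, and N1c_RBPJdel 2, N1c 5, RBPJdel 4 and control 5 against control. In the interaction it was 2 with the block (Uhrf1 and Ezh2) and 0 with single arrays left out. The block in the groups alone leaves 1 or 2 residual degrees of freedom in the comparisons above. The block over all groups pairs N1c_RBPJdel and RBPJdel arrays with others that the check did not pair. Of all 19752 genes, it called 3699 in N1c_RBPJdel against N1c, 2107 against RBPJdel, 3767 against control and 632 in the interaction. As reported these numbers were 1823, 452, 1757 and 166, so calls rose among all genes and not only among members. The cause of these changes was not tested.

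Over the alternatives the number of all genes called ran from 217 to 733 in N1c against control (326 as reported), 17 to 189 in RBPJdel against control (22), 368 to 3699 in N1c_RBPJdel against N1c (1823), 76 to 2107 against RBPJdel (452), 406 to 3767 against control (1757), 332 to 1017 in N1c against RBPJdel (494) and 101 to 632 in the interaction (166). The highest numbers with N1c_RBPJdel and in the interaction came from the block over all groups, and the others from array weights. The dimmer Tet3 cluster was called against control in 21 of 22 alternatives (adjusted p 0.00206 to 0.223), against RBPJdel in 15 (0.00684 to 0.413) and against N1c in 5. The upper ends against control and RBPJdel are from N1c_RBPJdel 2 alone.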

Other observations

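Of 6 Treg genes with regions that are demethylated in Treg, Ikzf4, an Ikaros family factor, fell by 0.59 ± 0.12 in N1c against control (adjusted p = 0.0113) and by 0.65 ± 0.12 in N1c against RBPJdel (adjusted p = 0.00365). Ctla4, an inhibitory receptor, rose by 0.82 ± 0.16 in N1c against RBPJdel (adjusted p = 0.00601). Tnfrsf18, a costimulatory receptor, rose by 0.52 ± 0.13 in N1c_RBPJdel against N1c (adjusted p = 0.0159), and no other comparison called a gene of this list. Of all genes, 1.65% were called in N1c against control, 2.5% in N1c against RBPJdel and 9.23% in N1c_RBPJdel against N1c.

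Of 11 measured genes described as Ezh2 targets in mouse T cells, 3 rose in N1c against control, where 0.937% of all genes rose, and 2 fell in N1c_RBPJdel against N1c, where 4.65% fell. The cytokine gene Il10 rose by 2.41 ± 0.39 in N1c against control (adjusted p = 0.00172) and fell by 2.29 ± 0.42 in N1c_RBPJdel against N1c (adjusted p = 0.00315), and Il4 rose by 0.53 ± 0.12 and fell by 0.56 ± 0.13. Id2, an inhibitor of DNA-binding factors, rose by 0.79 ± 0.13 in N1c and by 0.73 ± 0.15 in N1c_RBPJdel, each against control. In N1c_RBPJdel against control, where 8.9% of all genes were called in either direction, 3 of the 11 rose, Id2 among them. Tbx21, the T helper factor, rose by 0.90 ± 0.19 (adjusted p = 0.0106) and Prdm1, a transcriptional repressor made in effector Treg, rose by 0.52 ± 0.12 (adjusted p = 0.0154). In N1c against RBPJdel 3 of the 11 rose (Il10, Il4 and Id2), where 2.5% of all genes were called in either direction. Ezh2 itself was not called in these comparisons as reported.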
